A study of Mus musculus with 41 samples.

Results

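The interleukin 1 (IL-1) family genes described here are 10 genes for ligands, antagonists and receptors: Il1a, Il1b, Il1f9, Il18, Il1rn, Il18bp, Il1r1, Il1rap, Il1rl1 and Il1r2. They were taken by gene symbol from the authors' 3 deposited comparison tables, and are 10 of the 55453 genes that each table lists. All 10 had an adjusted p-value in each table. MC38-luc, a mouse colon carcinoma line with a luciferase gene, was grown orthotopically in the rectum (female C57BL6 hosts), and the tumours were harvested on day 14. Irradiated tumours had received short-course radiotherapy, 5 Gy in each of 5 fractions on days 9 to 13, and untreated (UT) tumours had not. From these tumours, CD45+ CD11b+ cells were sorted into tumour-associated macrophages (TAM; Ly6C-, Ly6G-, F4/80+), inflammatory monocytes (Ly6C+, Ly6G-) and granulocytes (Ly6C+, Ly6G+), and their RNA was sequenced. The labels give 5 untreated and 10 irradiated TAM libraries, 5 and 9 of inflammatory monocytes, and 5 and 7 of granulocytes. The sources used here give no age.

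The 41 libraries come from 15 numbered tumours, 11 of which gave all 3 subsets, so the 3 comparisons share tumours and are not independent of each other. Single-library values were not analysed here, so sequencing depth is unknown and values carry no SD. Each table gives a normalised count averaged over all libraries and a log2 fold change of irradiated over untreated. It also gives a Wald statistic (an effect divided by its standard error) and a DESeq2 p-value with its adjusted value. The fold change is read here as shrunken towards zero, an assumption that was not tested. A gene is called here where the adjusted p is under 0.05, and the sign of the Wald statistic gives its direction. In bulk RNA of a sorted gate, fewer cells of a type and less RNA per cell cannot be told apart. The tables give no level by subset, so the sorted subsets were not checked against their markers.

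IL-1 alpha and IL-1 beta are inflammatory cytokines that act on the same receptor, IL-1R1, which signals with an accessory chain, IL-1RAP, through MyD88, IRAK kinases and NF-kB. The family is held back by a receptor antagonist (IL-1Ra), by a decoy receptor (IL-1R2) and, for IL-18, by a soluble binding protein. Macrophages, monocytes and neutrophils are major sources of IL-1 beta in inflamed tissue and in tumours, where its precursor is cut by caspase-1 in inflammasomes or by neutrophil proteases.

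Relative to exon length, the transcripts of the agonist IL-1 beta, the decoy receptor and the antagonist led the family, and those of the signalling receptor were last. Averaged over all libraries, the mean normalised count per kilobase of exon was 73771 for Il1b, 14172 for Il1r2, 8669 for Il1rn, 4532 for Il1f9 and 3090 for Il1a. It was 1139 for Il18, 1079 for Il18bp, 460.4 for Il1rap, 51.6 for Il1rl1 and 22.4 for Il1r1. This order pools subsets and treatments, and without a spread over libraries neighbours such as Il18 and Il18bp cannot be ranked. Lengths are those of GENCODE M21, which may not be the annotation the authors counted on.

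In TAM, the first comparison, 5 of 10 members were called, all with a positive Wald statistic, against 26.4% of all tested genes called in either direction, 13.9% called higher and 12.5% called lower. They were Il1rn, Il1b, Il1a, Il18bp and Il1f9, which are ligands, an antagonist and a binding protein. No receptor was called, although 7 of 10 members had an unadjusted p under 0.05 in the authors' DESeq2 test. The share of all genes at that unadjusted p was not counted. The median Wald statistic was 3.22 over the members and 0.14 over all tested genes. In inflammatory monocytes 3 of 10 were called, all higher (background 5.9% in either direction, 4.13% higher and 1.77% lower), and the median Wald statistic was 1.44 beside 0.11 over all genes. In granulocytes 1 member was called higher and 2 lower (background 17.2% in either direction, 7.32% higher and 9.9% lower), with a median of -0.17 beside -0.14. Only Il18bp was called in all 3 comparisons, while 2 members were called in 2 of them, 4 in a single one and 3 in none. The same split over all genes was not counted, so it is not read as a result about the family.

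**Figure D1:**
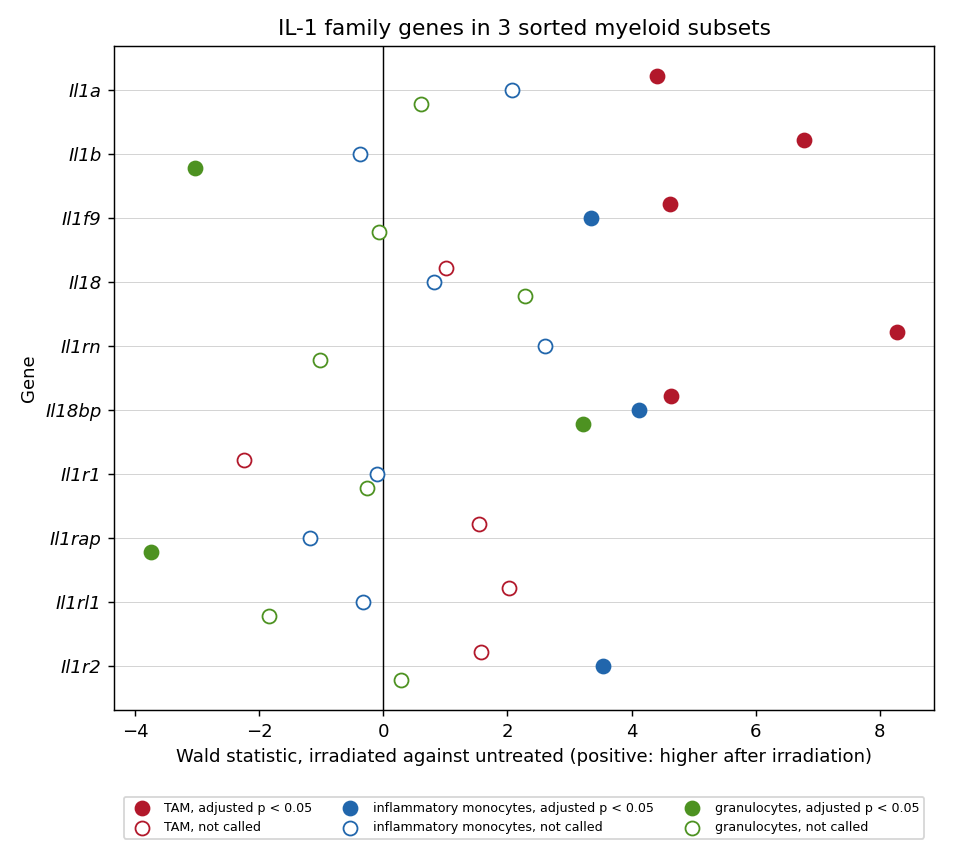
Wald statistic of irradiated against untreated tumours (x axis, no unit) for each of the 10 IL-1 family genes (y axis) in TAM, inflammatory monocytes and granulocytes; filled points have an adjusted p under 0.05. Il1rn (8.27) and Il1b (6.77) in TAM lie farthest to the right, and Il1rap (-3.74) and Il1b (-3.04) in granulocytes farthest to the left.

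Among the agonist ligands, Il1b rose in TAM and fell in granulocytes. In the authors' deposited table for TAM, Il1b had a log2 fold change of 1.5, that is 2.83-fold on the shrunken scale, with a Wald statistic of 6.77 and an adjusted p of 1.12e-09. It ranked 190th of 16851 tested genes by the size of the Wald statistic. For inflammatory monocytes the authors' deposited table puts Il1b at -0.09 on the log2 scale (Wald statistic -0.38, adjusted p = 0.887). In granulocytes Il1b fell by 0.715 on the log2 scale in the authors' deposited table (Wald statistic -3.04, adjusted p = 0.0205). The signs thus differed between TAM and granulocytes, and each value passed its own test.

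Whether Il1b moved in opposite directions was then tested with the larger p-value of the pair, 0.00238. It was adjusted over all 15679 genes tested in TAM and granulocytes. In this adjustment, genes whose Wald statistics had the same sign took the largest possible p-value. The adjusted p of this test was 0.349, so an opposite response of Il1b did not pass it, and 0.0957% of all genes did. Of the 30 combinations of a member and a pair of subsets, 10 had Wald statistics of opposite sign. Among them 1 (Il1b in TAM and granulocytes) had an unadjusted p under 0.05, and 0 passed after adjustment. The share of all genes with opposite signs was not counted, so the 10 are not read as a result about the family. In TAM and inflammatory monocytes 0 of all 14506 genes passed, and in inflammatory monocytes and granulocytes also 0 of 14506. The 0 for the members in those pairs is therefore no result about the family. The test covers opposite directions only. A difference in size between subsets was not tested, because the deposited folds carry no standard error.

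**Figure D2:**
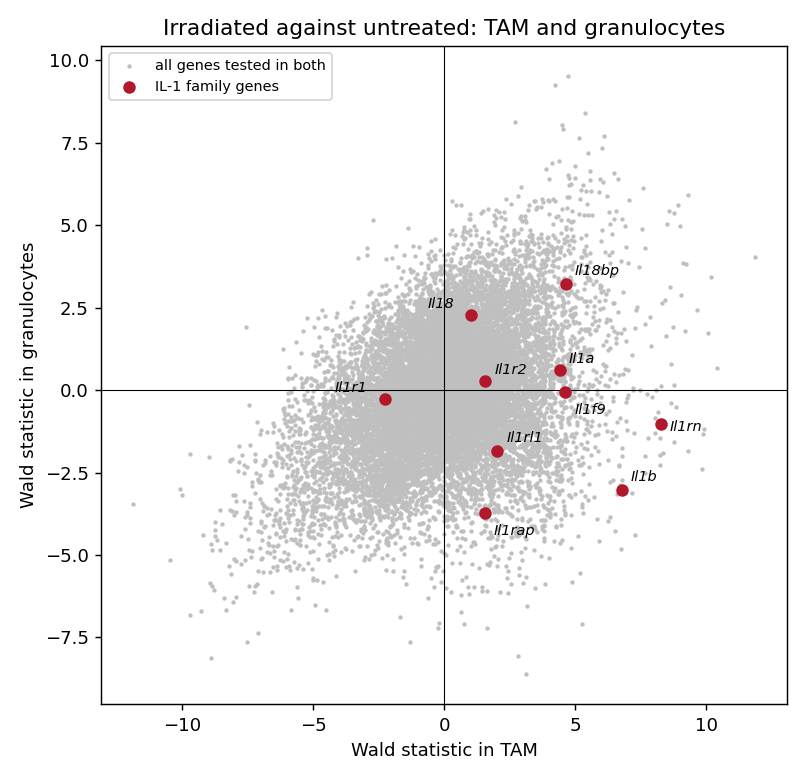
Wald statistics of irradiated against untreated tumours in TAM (x axis) and granulocytes (y axis), both without unit, for every gene tested in both tables (grey) and the 10 IL-1 family genes (red). Il1b lies at 6.77 and -3.04, to the right of and below zero, and Il18bp at 4.64 and 3.21 is above zero on both axes.

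Il1a, whose product is active without cleavage and acts as an alarm signal from damaged cells, rose in TAM. It stood at 1.68 there on the log2 scale (Wald statistic 4.41, adjusted p = 0.000141, from the authors' deposited table). The authors' deposited tables give Il1a log2 fold changes of 0.80 in inflammatory monocytes (adjusted p = 0.221) and 0.28 in granulocytes (adjusted p = 0.738), neither of which passed. Il1a shares 222 exon bases, 11.2% of its exons, with the antisense transcript Gm14023 in GENCODE M21. Gm14023 itself stood at 1.33 on the log2 scale in the authors' deposited table for TAM (adjusted p = 0.000931), and without strand the reads of both cannot be told apart there.

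Il1f9, which encodes IL-36 gamma, an agonist of the separate IL-36 receptor, rose in inflammatory monocytes. The authors' deposited table puts its log2 fold change at 1.40 there, with a Wald statistic of 3.35 (adjusted p = 0.0221). In TAM the authors' deposited table pairs a Wald statistic of 4.62 (adjusted p = 6.21e-05) with a shrunken log2 fold change of -0.03. Il1f9 is 1 of 16 called genes in TAM whose fold and Wald statistic differ in sign, and its direction in TAM is therefore uncertain. In granulocytes the authors' deposited table lists a Wald statistic of -0.07 and a log2 fold change of 0.17 for Il1f9 (adjusted p = 0.976).

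Il18, the precursor of a cytokine that drives interferon gamma production by lymphocytes, was called in no subset. The authors' deposited tables put its log2 fold change at 0.29 (TAM), 0.26 (inflammatory monocytes) and 0.74 (granulocytes). The Il18 value nearest the threshold was that in granulocytes (adjusted p = 0.0972, with a Wald statistic of 2.28, from the authors' deposited table).

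Among the inhibitors, Il1rn had the largest Wald statistic of the family. This gene encodes IL-1Ra, which occupies IL-1R1 without signalling. In TAM its log2 fold change was 1.90 (3.72-fold on the shrunken scale), with a Wald statistic of 8.27, in the authors' deposited table (adjusted p = 3.96e-14). It ranked 57th of 16851 tested genes. In inflammatory monocytes the authors' deposited table gives Il1rn 0.61 (Wald statistic 2.61, adjusted p = 0.0993), and in granulocytes -0.24 (Wald statistic -1.02, adjusted p = 0.538). In TAM, then, the antagonist Il1rn and both IL-1 agonists were called higher together, with shrunken log2 fold changes of 1.90, 1.5 (Il1b) and 1.68 (Il1a). Whether these sizes differ was not tested.

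Il18bp, which encodes the soluble protein that binds IL-18 and is itself known as an interferon gamma-induced gene, rose in every subset. Its log2 fold changes were 1.07 in TAM (Wald statistic 4.64, adjusted p = 5.67e-05), 0.97 in inflammatory monocytes (4.12, adjusted p = 0.00258) and 0.80 in granulocytes (3.21, adjusted p = 0.0133) in the authors' deposited tables. Il18, its target, passed in none of these. Il18bp shares 80 exon bases (2.64% of its exons) with Numa1 on the opposite strand in GENCODE M21, and Numa1 was called in no subset (Wald statistics of 1.59, 1.26 and -0.36 in the same order in the authors' deposited tables).

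Among the receptors, Il1rap, the accessory chain shared by the receptors for IL-1, IL-33 and IL-36, fell in granulocytes. The authors' deposited table puts Il1rap at -0.87 there on the log2 scale, with a Wald statistic of -3.74 (adjusted p = 0.00316). The authors' deposited tables give Il1rap 0.32 in TAM (adjusted p = 0.259) and -0.28 in inflammatory monocytes (adjusted p = 0.556). Il1r1, the signalling receptor, was called in no subset, its log2 fold changes in the authors' deposited tables being -0.22 (TAM), -0.06 (inflammatory monocytes) and -0.18 (granulocytes). The Il1r1 value in TAM was the nearest to the threshold (Wald statistic -2.25, adjusted p = 0.0807).

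Il1r2, the decoy receptor, which binds IL-1 and does not signal, rose in inflammatory monocytes by 1.41 on the log2 scale (Wald statistic 3.54 and adjusted p = 0.0136, as the authors' deposited table has it). Its log2 fold changes of 0.51 in TAM (adjusted p = 0.249) and 0.18 in granulocytes (adjusted p = 0.892) did not pass in the authors' deposited tables. Il1rl1, which encodes the IL-33 receptor ST2, was called in no subset, with 0.87 in TAM (adjusted p = 0.12), -0.14 in inflammatory monocytes (adjusted p = 0.906) and -0.84 in granulocytes (adjusted p = 0.202) in the authors' deposited tables. Mast cells and basophils carry much ST2. Of 9 markers of these cells, 7 had a mean normalised count under 10 over all libraries (Mcpt8 0.839, Fcer1a 0.259), and Kit (110.6) and Gata2 (64.4) lay above it, in the authors' deposited tables. Of the 3 tested, 0 were called in TAM (26.4% of all genes) and 0 in inflammatory monocytes (5.9% of all genes). In each of these subsets 1 had an unadjusted p under 0.05 in the authors' DESeq2 test. In granulocytes, where 17.2% of all genes were called, Gata2 fell (-1.68, adjusted p = 0.0176) and Cd200r3 rose (1.81, adjusted p = 0.0382), from the authors' deposited table. The part of these cells in the values of Il1rl1 was not tested.

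These calls depend on the null distribution taken for the Wald statistic. When the statistics were centred and divided by their robust SD (2.72, 1.56 and 2.09 in the order TAM, inflammatory monocytes, granulocytes), 0 members passed in each subset, beside 2, 3 and 0 members at an unadjusted p under 0.05, and 0, 23 and 0 of all tested genes passed. At an adjusted p under 0.01, all 5 members stayed called in TAM, while only Il18bp did in inflammatory monocytes and only Il1rap in granulocytes.

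Upstream sequence is shown for Il1b, Il1a, Il1rn and Il18bp, the members that rose in TAM with a fold of the same sign, so that the starts of genes called together can be compared. Each line holds the 250 bases before a RefSeq transcription start, 5′ to 3′ on the gene's strand, in build GRCm38.p6, from which the authors' build (mm39) differs. RefSeq windows were found for all 10 members. Il1rn has 3 annotated starts, of which the one farthest downstream is shown. Capitals mark matches, on either strand, to any of 7 motifs.

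Il1b, chr2:129371140-129371389, minus strand: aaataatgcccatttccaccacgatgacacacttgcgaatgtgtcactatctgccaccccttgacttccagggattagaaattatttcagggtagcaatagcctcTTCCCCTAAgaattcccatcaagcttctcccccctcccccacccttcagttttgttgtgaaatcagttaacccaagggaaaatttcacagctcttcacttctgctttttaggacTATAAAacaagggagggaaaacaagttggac
Il1a, chr2:129309973-129310222, minus strand: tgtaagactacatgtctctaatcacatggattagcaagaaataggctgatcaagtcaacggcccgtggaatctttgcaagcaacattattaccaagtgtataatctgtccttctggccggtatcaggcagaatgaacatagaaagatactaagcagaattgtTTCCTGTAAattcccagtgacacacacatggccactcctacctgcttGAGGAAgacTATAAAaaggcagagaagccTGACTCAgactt
Il1rn, chr2:24345121-24345370, plus strand: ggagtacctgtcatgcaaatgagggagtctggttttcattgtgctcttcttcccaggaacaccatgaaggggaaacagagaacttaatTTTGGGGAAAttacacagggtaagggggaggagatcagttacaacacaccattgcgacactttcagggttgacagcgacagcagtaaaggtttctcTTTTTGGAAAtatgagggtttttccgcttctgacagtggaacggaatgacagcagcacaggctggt
Il18bp, chr7:102018233-102018482, minus strand: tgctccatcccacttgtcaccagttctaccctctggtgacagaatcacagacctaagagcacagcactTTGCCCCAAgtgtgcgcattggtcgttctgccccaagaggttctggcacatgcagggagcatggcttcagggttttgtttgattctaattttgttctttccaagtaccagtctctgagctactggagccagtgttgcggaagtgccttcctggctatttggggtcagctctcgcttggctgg

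The TATA box (TATAAA), which positions the transcription machinery, was found in the windows of both IL-1 agonist genes. It begins 31 bases upstream of the start in Il1b and 32 in Il1a, and 12.4% of all 32851 RefSeq windows of this length hold this motif on either strand. A C/EBP motif (TTNCNNNAA) lies in all 4 windows shown and in 32.9% of all windows. It begins 145 bases upstream in Il1b, 88 in Il1a and 182 in Il18bp, and the Il1rn window holds 2 overlapping pairs of matches, beginning at 162 and 161 and at 66 and 65 bases. The Il1a window also holds a PU.1 motif (GAGGAA) 41 bases upstream and an AP-1 motif (TGANTCA) 12 bases upstream, which 23.3% and 6.75% of all windows hold. An AP-1 match also lies 141 bases upstream of another annotated start of Il1rn, whose window is not shown. The NF-kB motif (3.90% of all windows), the interferon-stimulated response element (2.98%) and the interferon gamma-activated site (TTCNNNGAA, 7.02%) have no match within these 4 windows. Over the windows of all 10 members NF-kB had a single match, 232 bases upstream of a start of Il1r1. The last of these motifs can overlap the C/EBP motif, as it does in the windows of Il1f9 and Il1r2. A match is a match of letters and was not tested as a binding site.

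Genes known to be induced by IL-1 were called higher in TAM in 16 of 21 tested cases and lower in none, with a median Wald statistic of 3.71, where 13.9% of all tested genes were called higher. Many of them also respond to other signals of inflammation, and the part of IL-1 in these calls was not tested. The 4 with the smallest p in the authors' deposited table were Nfkbia, the NF-kB inhibitor (log2 fold change 1.27), Lcn2, an iron-sequestering protein (0.58), Acod1, the itaconate-forming enzyme (1.34), and Tnfaip3, which encodes the NF-kB restraint A20 (1.81). In inflammatory monocytes, where 4.13% of all genes were called higher, 3 of 20 were called, all higher: Saa3, an acute-phase protein (2.86), Lcn2 (1.75) and Csf3, the granulocyte growth factor G-CSF (1.56), in the authors' deposited table. In granulocytes 5 of 21 rose and 1 fell (7.32% and 9.9% of all genes), with a median Wald statistic of 1.30. Icam1, an adhesion receptor (1.14), Saa3 (3.92), Tnf (1.03) and Csf3 (2.69) rose, and Ptgs2, which encodes cyclooxygenase 2, fell (-0.88), in the authors' deposited table.

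Genes for the processing and release of these cytokines were called higher in TAM in 9 of 18 tested cases and lower in none (median Wald statistic 2.33), beside 13.9% of all genes called higher. The 4 with the smallest p in the authors' deposited table were Mefv, which encodes pyrin (log2 fold change 1.59), the pore-forming gasdermin gene Gsdmd (0.52), the inflammatory caspase gene Casp4 (0.92) and Ninj1, which acts in membrane rupture (0.63). In inflammatory monocytes 3 of 18 were called, beside 5.9% of all genes. P2rx7, the ATP-gated channel that triggers NLRP3 (0.73), and Ctss, cathepsin S (0.56), rose and Capn2, a calpain (-0.49), fell, in the authors' deposited table. In granulocytes, where Il1b fell, 5 of 18 rose and none fell, beside 7.32% of all genes called higher. These were Pycard, the inflammasome adaptor ASC (0.98), Ctss (0.98), Nlrc4 (0.96), Casp1, the IL-1 beta-converting enzyme (0.58), and Prtn3, a neutrophil protease (1.08), in the authors' deposited table. In TAM, the authors' deposited table puts Casp1 at 0.04 (adjusted p = 0.875).

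The chain from receptor to NF-kB gave 8 higher and 1 lower of 24 tested genes in TAM (median Wald statistic 2.15), that is 37.5% called beside 26.4% of all genes. The kinase genes Ikbkb (log2 fold change 0.57), Irak2 (0.79) and Chuk (0.60) rose and Ube2n, a ubiquitin-conjugating enzyme, fell (-0.36), in the authors' deposited table. In the other subsets the share called was near that of all genes, and rests on few called genes. It was 1 of 24 in inflammatory monocytes (5.9% of all genes), the kinase gene Map3k8 (0.77 in the authors' deposited table), and 3 of 24 in granulocytes (17.2% of all genes). There Irak3, an inhibitory IRAK (1.30), rose, and Traf6, the ubiquitin ligase below the IRAK kinases (-0.95), and Nfkb1 (-0.94) fell, in the authors' deposited table. Of the other ligands and receptors of the family, 6 of 11 in the tables were tested. Sigirr, an inhibitory receptor of the family, fell in TAM (-0.96, adjusted p = 0.0275) and in granulocytes (-1.09, adjusted p = 0.03), Il33 fell in granulocytes (-1.22), and Il1rl2, the IL-36 receptor, rose in granulocytes (1.12), in the authors' deposited tables. In inflammatory monocytes 0 of these 6 passed the authors' DESeq2 test, and 1 had an unadjusted p under 0.05.

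**Figure D3:**
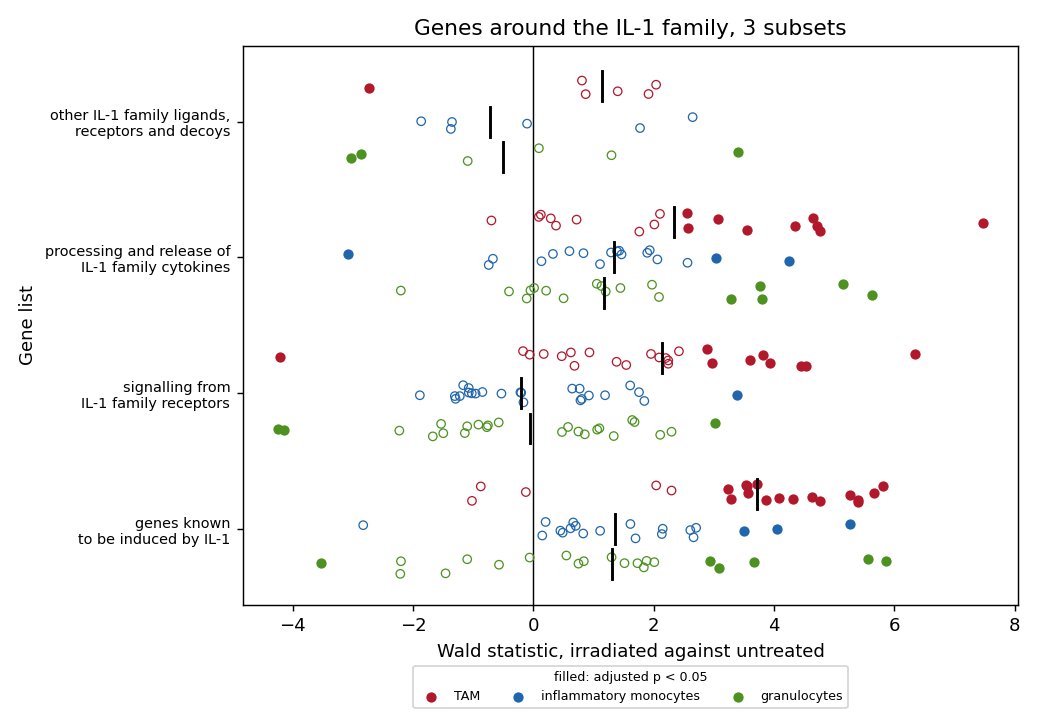
Wald statistic of irradiated against untreated tumours (x axis, no unit) for each tested gene of 4 lists around the IL-1 family (y axis), by subset; filled points have an adjusted p under 0.05, bars mark list medians and points are spread vertically for legibility. Genes known to be induced by IL-1 have medians of 3.71 (TAM), 1.36 (inflammatory monocytes) and 1.30 (granulocytes).

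Markers of other cell types moved with several of these results. The gates are meant to leave out several of these cell types. Those of TAM and inflammatory monocytes are Ly6G-, which is directed against neutrophils. All gates are CD45+ CD11b+, which is directed against fibroblasts, endothelium, epithelium and most lymphoid cells. How far the sort removed such cells was not tested. The shares of all genes called, against which the marker counts are to be read, are 13.9% higher and 12.5% lower in TAM, 4.13% and 1.77% in inflammatory monocytes, and 7.32% and 9.9% in granulocytes. Neutrophils are a known source of Il1b, Il1r2 and Il1f9, and neutrophil markers were called higher in 12 of 14 cases in TAM (5 of them with a negative shrunken fold, as for Il1f9) and in 8 of 14 in inflammatory monocytes. Ly6g, the marker of the gate, was not called in TAM (Wald statistic 2.41, log2 fold change -0.37, adjusted p = 0.0583) and was called higher in inflammatory monocytes (0.95, adjusted p = 0.0447), from the authors' deposited tables. In granulocytes 1 of 14 was called higher and 1 lower. Classical monocyte markers were called higher in TAM in 5 of 9 cases (Ly6c2 by 1.96 on the log2 scale, from the authors' deposited table) and in granulocytes in 3 of 9. Of 12 macrophage markers, 9 rose in inflammatory monocytes, 6 in granulocytes and 3 in TAM. The part of these other cells in the values of the IL-1 family was not tested, and summed marker levels by group were not analysed here.

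Eosinophil markers were called higher in 4 of 5 tested cases in TAM, 2 of 5 in inflammatory monocytes and 1 of 5 in granulocytes. Fibroblast and endothelial markers, from cells in which Il1r1 is known to be high, fell in 3 of 10 cases in TAM and in 3 of 10 in granulocytes, and 1 (Pecam1) rose in TAM. Lymphoid markers, from cells that can carry the IL-18 and IL-33 receptors, fell in 2 of 12 cases in TAM, a share close to that of all genes, and in 3 of 12 in granulocytes. Dendritic cell markers fell in 5 of 9 cases in TAM, and epithelial markers rose in 2 of 9. The part of these cells in the values was likewise not tested.

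**Figure D4:**
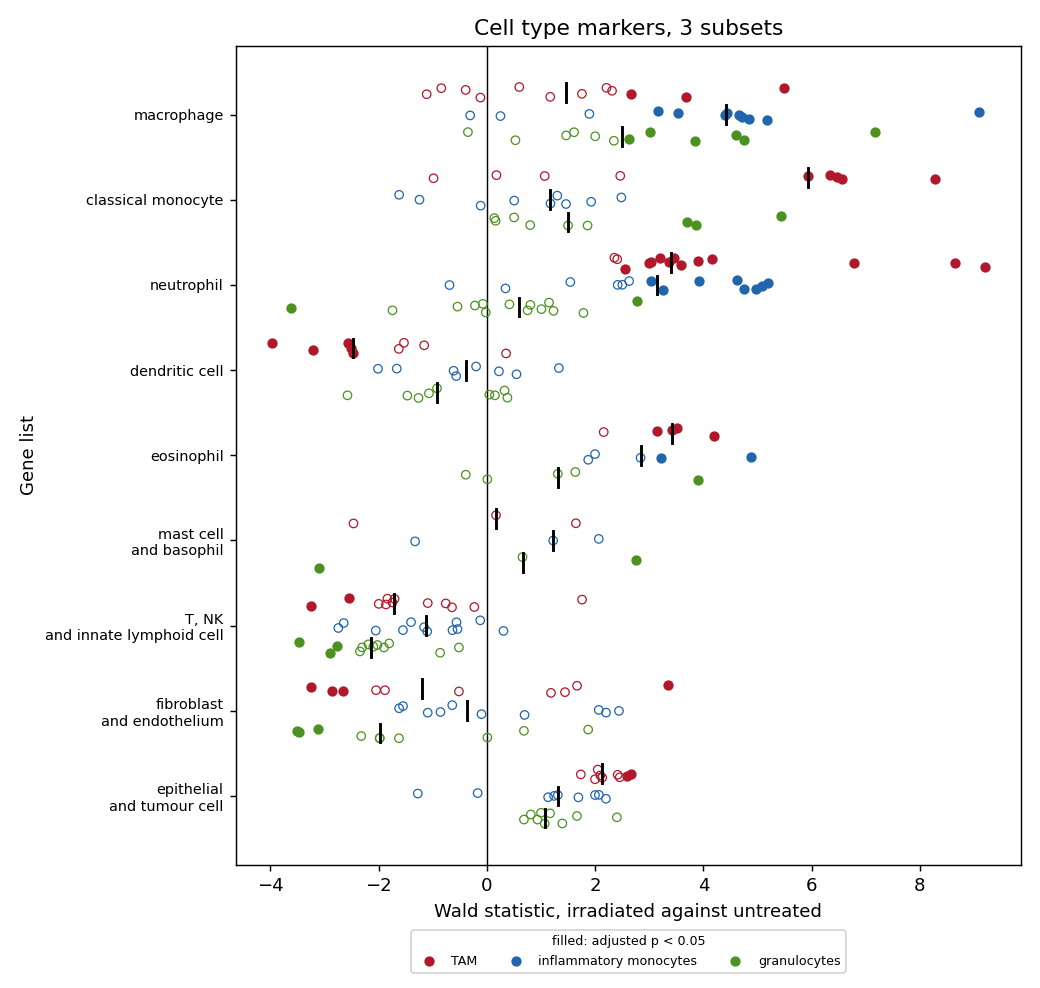
Wald statistic of irradiated against untreated tumours (x axis, no unit) for each tested marker of 9 cell type lists (y axis), by subset; filled points have an adjusted p under 0.05, bars mark list medians and points are spread vertically for legibility. Neutrophil markers have medians of 3.41 (TAM), 3.14 (inflammatory monocytes) and 0.58 (granulocytes).

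Genes whose responses were most like those of 4 members were found by the Euclidean distance over the 3 Wald statistics, among 10150 genes whose mean count reached 50. For Il1b they were Btg1 (distance 0.181), Sesn2 (0.427) and Trib1 (0.547), from Wald statistics in the authors' deposited tables. For Il1rn they were Arg2 (1.01), Zfp36 (1.13) and Abtb2 (1.16), a wider gap than for the other 3 genes. Dcaf8 (0.188), Adamdec1 (0.213) and Hnmt (0.419) lay nearest to Il1r2, and Znfx1 (0.292), H2-K1 (0.343) and Ifi214 (0.395) nearest to Il18bp. Likeness over 3 comparisons that share tumours is a description only.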

How the data were processed

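RNA of 41 libraries of sorted cells was measured by the authors. Per the submitters' processing notes, fastp 0.20.1, STAR 2.7.6a, DESeq2 1.28.1, R 4.0.2 and the build mm39 (GRCm39) were used. The sources used here do not give the counting, its strand setting or the model. Per the labels' protocols, libraries were made from cDNA with a transposase kit, which keeps no strand. The authors deposited, per gene, a mean normalised count (a signal averaged over libraries, identical in the 3 tables), a log2 fold change read as shrunken, a Wald statistic (a score) and p-values with adjusted values. Benjamini-Hochberg adjustment of the deposited p-values over the genes with an adjusted value gave the deposited adjusted values within 4.2e-13 on the log10 scale.

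Computed here were counts of called members, the test of opposite directions, distances, motif matches and 8 alternatives per comparison, with Python 3.11.15, pandas 2.3.3, numpy 2.4.6, scipy 1.17.1 and matplotlib 3.10.9. Adjustment and the opposite test were tested on simulated Wald statistics. Named genes are all members, up to 4 called genes per pathway list and comparison with the smallest p, and the 3 nearest genes of 4 members. Other genes named were chosen after their values were seen. Members and lists were chosen with earlier results of these data known. Whether libraries of 1 group are separate animals is stated only by tumour number. Since the model is not given, it is unknown whether the p-values measure the spread between tumours within a subset. Whether libraries of the same tumour were treated as independent is unknown too.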

Additional observations from a re-analysis of the deposited data

How the results depend on the processing

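Over 8 alternatives per comparison, 212 of 240 values of single members kept their direction and side of the threshold. Of the rest, 20 lost their call, 4 gained a call and 4 changed direction. Most of the 240 values belong to members not called at the main threshold. A stricter threshold or an added limit on the fold cannot change these, so the 212 do not measure how stable the calls are. With Wald statistics centred and divided by the robust SD, 0 members passed in TAM and 0 in either of the other subsets. That setting divides by a spread that includes responding genes. At an adjusted p under 0.01, 1 member was called in inflammatory monocytes and 1 in granulocytes. Where a fold of 1 or more in size on the log2 scale was also required, 0 were called in granulocytes, where the called folds are between 0.715 and 0.872 in size. Direction taken from the shrunken fold turned Il1f9 to -0.03 in TAM and to 0.17 in granulocytes. Centring on the median turned the Wald statistic of Il1f9 in granulocytes to 0.012, and to 0.0057 with rescaling, both near 0. Centring also brought Il1r1 in TAM to an adjusted p of 0.0486, lower in irradiated tumours. For Il1b in TAM and granulocytes, the adjusted p of opposite directions was 0.349, and 0.247 over genes whose mean count reached 50.

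No paired analysis was possible because untreated and irradiated libraries come from different tumours and single-library values were not used. For the same reason no library was left out in turn.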

Other observations

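The genes of the family on chromosomes 1 and 2 lie in clusters, and neighbours did not always share calls. Il18, Il18bp and Il1rap lie on other chromosomes and have no neighbour of the family. In RefSeq (GRCm38.p6), Il1a and Il1b are adjacent on chromosome 2, and the neighbour on the other side of Il1a is Ckap2l, a mitotic spindle gene. In the authors' deposited table for TAM, Ckap2l fell by 2.71 on the log2 scale (Wald statistic -7.10 and adjusted p = 1.48e-10), while Il1a and Il1b rose. On chromosome 1, Il1r2 and Il1r1 are adjacent, and Il1r2 alone of this pair was called in inflammatory monocytes. The difference between these neighbours was not tested. Il1bos, an antisense transcript that shares 25 exon bases with Il1b in GENCODE M21, fell in granulocytes, as Il1b did (-0.94 on the log2 scale and adjusted p = 0.026, from the authors' deposited table). In TAM, where Il1b rose, Il1bos had a log2 fold change of 0.03 (adjusted p = 0.883 in the authors' deposited table). The library kit keeps no strand, so reads in the shared bases cannot be assigned. These neighbours were chosen after their values were seen.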
